A study of Sus scrofa with 12 samples.

Results

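The complement genes described here are C1QA, C1QB, C1QC, C1R, C1S, C2, C3, C7 and CFD, which make up 9 of the 21674 genes in the coding-gene table. They were chosen by symbol, and all 9 were present. Complement is a cascade of proteins in blood and tissue that marks cells, debris and immune complexes for clearance and can open pores in membranes. C1q with its proteases C1r and C1s starts the classical pathway, which runs through C4 and C2 to C3, whereas factor D acts in the alternative pathway. Macrophages are a known source of C1q, and fibroblasts are a known source of C1r and C1s.

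The samples were testes of Hezuo (HZ) and Landrace (LC) boars. Ha was HZ at 30 days of age, Hb was HZ at 120 days, La was LC at 30 days and Lb was LC at 120 days, with 3 libraries in each group. Levels are given in CPM, the counts of a gene divided by the library total and multiplied by 1e6, and scaled with the trimmed mean of M-values (TMM) over the 12 libraries. A gene was called differentially expressed at an adjusted p under 0.05, with edgeR over all genes tested, and an absolute log2 fold change over 1. Fold changes are the group named second over the group named first, so a negative value in Ha vs Hb is a lower level in Hb, and the standard error follows the sign ±. The p-values measure the spread between these libraries. An exact permutation test of 3 libraries against 3 could not give less than 0.1.

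The tissue label and the ages were checked with germ cell genes. PRM1, which encodes a protamine of sperm chromatin, was at 0.844 to 2.80 CPM in the 6 libraries at 30 days and at 1120.4 to 3084 CPM in the 6 libraries at 120 days. All 8 spermatocyte genes and all 9 spermatid genes tested were upregulated with age in each breed, as were 4666 of 16548 genes tested in HZ and 4574 of 16637 in LC. Among the Hb libraries, Hb1 stood apart in some genes of Leydig cells and of stroma. CYP17A1, an androgen synthesis enzyme, was at 1444, 21.2 and 19.3 CPM in Hb1, Hb2 and Hb3. The Leydig hormone INSL3 was at 2079.9, 97.3 and 34.8 CPM in the same libraries, whereas HSD17B3 was lower in Hb1 (93.1, 137.6 and 151.2 CPM) and HSD3B1 was similar (29.0, 19.5 and 28.1 CPM). The collagen gene COL3A1 was at 239.7, 44.4 and 33.9 CPM, and COL1A2 at 118.8, 23.0 and 23.9 CPM. Of the other stromal and peritubular genes, COL1A1, MYH11 and PDGFRA were also highest in Hb1, and LUM and DCN lay in between. Hb1 was instead lowest for PDGFRB (5.68, 20.8 and 9.89 CPM), ACTA2 (61.5, 91.8 and 71.1 CPM) and DES (14.3, 23.9 and 14.6 CPM). Leaving out Hb1 changed no call of the 9 complement genes in Ha vs Hb, and the changes it made in other comparisons are given with them.

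With age most of the complement genes were downregulated in both breeds. In Ha vs Hb, 7 of the 9 genes were called and all 7 were downregulated, while over all 16548 genes tested 51.4% were called in either direction and 23.2% were called as downregulated. For La vs Lb the number was also 7 of the 9, all downregulated, while over all 16637 genes tested 47.6% were called in either direction and 20.1% as downregulated. C3 and CFD in HZ and C1S and C7 in LC were the genes not called. The median log2 fold change of the 9 genes was -2.06 for HZ (Ha vs Hb) and -1.49 for LC (La vs Lb), against medians of -0.02 and 0.01 over all genes tested. Every Hb library lay below every Ha library for 7 of the 9 genes, as it did for 36.7% of the 17332 genes that passed the filter over the 12 libraries. Every Lb library lay below every La library for all 9 genes, against 36.4% of those genes. The number called in Ha vs Hb was 8 without Ha2, 9 without Hb2 and 6 without Hb3. For La vs Lb it was 6 without La1 and 8 without Lb2. In bulk tissue, fewer cells of a type, less RNA per cell and a larger share of RNA from other cells cannot be told apart. CPM and FPKM are shares of a library. The summed spermatid genes had group means of 5.67 CPM in Ha, 6846 CPM in Hb, 7.003 CPM in La and 3599 CPM in Lb. How far their rise lowered the levels of the complement genes was not tested.

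Scaling shifted all genes but not the direction of these. With library totals alone in place of TMM, the median log2 fold change over all genes moved to -0.32 for HZ and -0.16 for LC, and with upper-quartile scaling to -0.34 and -0.25. For Ha vs Hb, 54.8% of the calls over all genes were upregulated with TMM, against 44.1% with library totals and 43.7% with upper-quartile scaling. For La vs Lb, 57.7% of the calls were upregulated with TMM, against 50.7% and 47.1%. The 9 genes had a negative fold change in both comparisons under every alternative. That makes 144 of 144 values for HZ and 144 of 144 for LC. The alternatives, most of which are not scalings, reuse the same libraries, so these values are not independent. The adjusted p alone uses the main fit, so its signs could not differ.

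**Figure D1:**
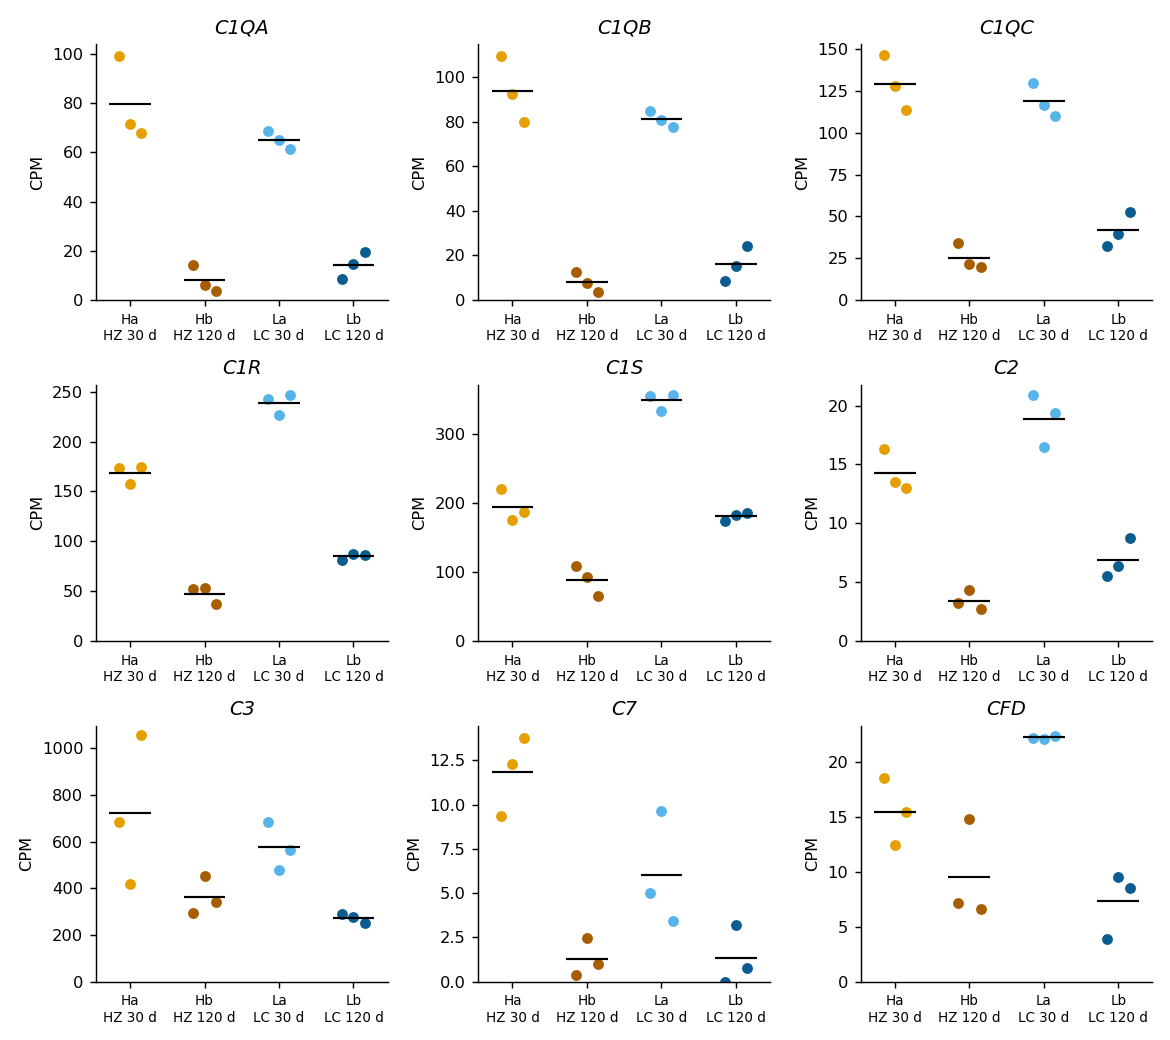
Level of each of the 9 complement genes in the 12 libraries, in CPM with TMM scaling, with 3 points per group and the group mean as a line. Ha and Hb are HZ at 30 and 120 days, and La and Lb are LC at 30 and 120 days.

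The 3 chains of C1q, the recognition molecule that binds antibody complexes and cell debris, fell in both breeds. C1QA was at 99.1, 71.5 and 67.9 CPM in Ha1, Ha2 and Ha3, at 14.3, 6.22 and 3.49 CPM in Hb1, Hb2 and Hb3, at 68.5, 65 and 61.5 CPM in La1, La2 and La3, and at 8.69, 14.8 and 19.4 CPM in Lb1, Lb2 and Lb3. C1QA was thus high in all libraries at 30 days and low in all at 120 days, with no overlap between the ages in either breed. Its log2 fold change was -3.31 ± 0.49 in Ha vs Hb (edgeR adjusted p 0.000747) and -2.16 ± 0.27 in La vs Lb (edgeR adjusted p 0.000134). C1QB was at 109.6, 92.4 and 79.9 CPM in Ha, at 12.4, 7.71 and 3.82 CPM in Hb, at 84.9, 80.6 and 77.6 CPM in La, and at 8.56, 15.4 and 24.2 CPM in Lb, always in the order of the library numbers. It was again high in every library at 30 days and low in every library at 120 days. The fold change of C1QB was -3.55 ± 0.40 in Ha vs Hb (edgeR adjusted p 0.000201) and -2.32 ± 0.33 in La vs Lb (edgeR adjusted p 0.000297). C1QC was at 146.7, 127.7 and 113.4 CPM in Ha, at 34.1, 21.9 and 19.8 CPM in Hb, at 129.9, 116.6 and 109.8 CPM in La, and at 32.6, 39.6 and 53.0 CPM in Lb. Its levels were high at 30 days and low at 120 days in every library of both breeds. C1QC had a log2 fold change of -2.35 ± 0.23 in Ha vs Hb (edgeR adjusted p 0.000112) and -1.49 ± 0.19 in La vs Lb (edgeR adjusted p 0.000146).

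C1R and C1S, which encode the proteases that C1q activates in turn, were also lower at 120 days in both breeds. C1R was at 173.3, 157.6 and 174.4 CPM in Ha, at 51.6, 53.3 and 37.3 CPM in Hb, at 243.1, 226.8 and 246.6 CPM in La, and at 80.9, 87.1 and 86.6 CPM in Lb. The 4 groups of C1R did not overlap, and La was highest, followed by Ha, Lb and Hb. The log2 fold change of C1R was -1.83 ± 0.16 in Ha vs Hb (edgeR adjusted p 6.68e-05) and -1.48 ± 0.10 in La vs Lb (edgeR adjusted p 3.51e-06). C1S was at 220.4, 175.6 and 186.4 CPM in Ha, at 108.2, 93.2 and 64.3 CPM in Hb, at 354.5, 333.3 and 356.0 CPM in La, and at 173.2, 182.3 and 185.3 CPM in Lb. All Hb libraries were low, all La libraries were high, and Ha and Lb overlapped in between. C1S in Ha vs Hb had a log2 fold change of -1.13 ± 0.21 (edgeR adjusted p 0.00202), which was -0.94 without Hb3 and then no longer past the fold threshold. C1S in La vs Lb had a log2 fold change of -0.93 ± 0.09 (edgeR adjusted p 4.37e-05) and so was lower in all 3 Lb libraries without reaching the fold threshold, which it passed with library totals (-1.10) and upper-quartile scaling (-1.19). The difference between the breeds in this change was 0.18 ± 0.23 (edgeR adjusted p 0.671 for the interaction of breed and age).

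C2, which supplies the protease part of the classical C3 convertase, fell in both breeds. C2 was at 16.3, 13.5 and 13.0 CPM in Ha, at 3.25, 4.32 and 2.70 CPM in Hb, at 20.9, 16.5 and 19.3 CPM in La, and at 5.55, 6.35 and 8.72 CPM in Lb. It was low in all 6 libraries at 120 days, with Hb below Lb. The log2 fold change of C2 was -2.06 ± 0.25 in Ha vs Hb (edgeR adjusted p 0.000272) and -1.44 ± 0.22 in La vs Lb (edgeR adjusted p 0.000503). C3, the central component on which the pathways meet, was at 685.3, 420.4 and 1057 CPM in Ha, at 296.3, 453.1 and 340.8 CPM in Hb, at 685.6, 477.8 and 563.6 CPM in La, and at 289.2, 279.3 and 250.6 CPM in Lb. The Ha libraries of C3 were widely spread, and Ha2 lay below Hb2, whereas La and Lb did not overlap. C3 in Ha vs Hb had a log2 fold change of -0.99 ± 0.33 (edgeR adjusted p 0.0304) and just missed the fold threshold. It was called without Ha2 (-1.27), without Hb2 (-1.20), with library totals (-1.28), with upper-quartile scaling (-1.30) and with limma on FPKM (-1.38 and -1.40), and over all alternatives the adjusted p ran from 0.00673 to 0.0912. C3 in La vs Lb was called at -1.06 ± 0.14 (edgeR adjusted p 0.000221), though not without La1 (-0.93). The interaction for C3 was -0.09 ± 0.39 (edgeR adjusted p 0.927).

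C7, a component of the pore that forms at the end of the cascade, had few reads at 120 days. C7 was at 9.36, 12.3 and 13.8 CPM in Ha, at 0.406, 2.46 and 0.989 CPM in Hb, at 5.0, 9.64 and 3.46 CPM in La, and at 0, 3.20 and 0.770 CPM in Lb. Its estimated counts were 7.41, 52.7 and 15.2 in Hb and 0, 67.7 and 15.1 in Lb, and they were not whole numbers in 11 of the 12 libraries, whereas those of the other 8 genes were whole throughout. Every library at 120 days was below every library at 30 days of the same breed, but Hb2 and Lb2 were well above the other libraries of their groups. C7 was called in Ha vs Hb at -3.17 ± 0.57 (edgeR adjusted p 0.00195). For La vs Lb its log2 fold change was -2.17 ± 0.99 (edgeR adjusted p 0.0799), and without Lb2 it was called at -3.97 (edgeR adjusted p 0.00962, in a range of 0.00626 to 0.238 over all alternatives), and limma on FPKM (-1.13 and -2.63) and the replicate number as a block (-2.79, adjusted p 0.0376) called it as well. The interaction for C7 was 0.99 ± 1.29 (edgeR adjusted p 0.686), and without Lb2 it changed sign to -0.81.

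CFD, which encodes factor D, the protease that cleaves factor B in the alternative pathway, was at 18.5, 12.4 and 15.4 CPM in Ha, at 7.13, 14.8 and 6.66 CPM in Hb, at 22.2, 22.1 and 22.4 CPM in La, and at 3.88, 9.55 and 8.52 CPM in Lb. Hb2 was as high as the Ha libraries, whereas Lb was low in all 3 libraries and La was high in all 3. CFD in La vs Lb was called at -1.59 ± 0.31 (edgeR adjusted p 0.00178). For Ha vs Hb its log2 fold change was -0.69 ± 0.34 (edgeR adjusted p 0.105), and without Hb2 it was called at -1.19 (edgeR adjusted p 0.00538, in a range of 0.00538 to 0.269 over all alternatives), and limma on FPKM called it at -1.10 and -1.25. The interaction for CFD was -0.91 ± 0.50 (edgeR adjusted p 0.287).

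**Figure D2:**
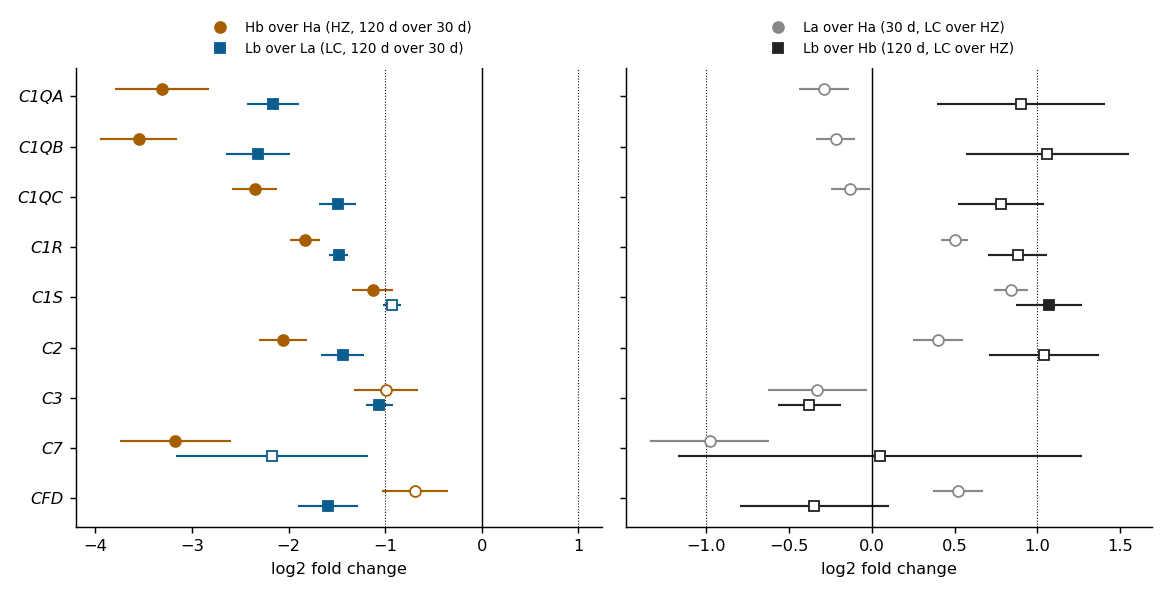
Log2 fold change of each complement gene with its standard error, for the 2 age comparisons on the left and the 2 breed comparisons on the right. Filled symbols were called, and dotted lines mark a log2 fold change of 1 in each direction.

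Between the breeds at 30 days, none of the 9 genes was called. In Ha vs La, edgeR called 0 of the 9, against 7.62% of 15648 genes tested, DESeq2 and limma called 0 as well, and 5 of the 9 had an unadjusted p under 0.05 with each of these tools. At the adjusted p alone 3 of the 9 passed, all higher in La, against 21.3% of all genes. The libraries of Ha and La did not overlap for 4 of the 9 genes, C1R, C1S, C2 and CFD, all higher in La, and they did not overlap in either direction for 38.9% of all genes. The log2 fold change was 0.84 ± 0.10 for C1S (edgeR adjusted p 0.00219), 0.50 ± 0.08 for C1R (edgeR adjusted p 0.00544) and 0.52 ± 0.15 for CFD (edgeR adjusted p 0.0481). The C1q chains were close to 0 in this comparison, at -0.29 ± 0.15 for C1QA, -0.22 ± 0.12 for C1QB and -0.13 ± 0.12 for C1QC. C2 was at 0.40 ± 0.15 and C3 at -0.33 ± 0.30, the latter with a change of sign to 0.05 without Ha3. C7 was at -0.98 ± 0.36 (edgeR adjusted p 0.0868), and without La2 it was called at -1.47 (edgeR adjusted p 0.0223, in a range of 0.0223 to 0.528 over all alternatives).

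At 120 days C1S alone was called between the breeds. In Hb vs Lb, edgeR called 1 of the 9 genes, against 3.85% of 16311 genes tested, and at the adjusted p alone 2 of the 9 passed, against 5.47%. Over all genes, the share called was 0.716% without Hb3, 1.1% without Lb1, 0.588% without Lb2 and 0.838% without Lb3. With the replicate number as a block it was 0.944%. C1S was higher in all 3 Lb libraries, with a log2 fold change of 1.07 ± 0.20 (edgeR adjusted p 0.0267). It was not called without Hb3 (0.89, adjusted p 0.0561), Lb1 (1.10, adjusted p 0.0736), Lb2 (1.08, adjusted p 0.0910) or Lb3 (1.04, adjusted p 0.0930), nor with the replicate number as a block (1.10, adjusted p 0.0738), and over all alternatives the edgeR, DESeq2 and limma adjusted p ran from 2.83e-05 to 0.0930. C1R was also higher in all 3 Lb libraries, at 0.88 ± 0.18 (edgeR adjusted p 0.0329), and it was called at 1.0 without Hb2, where the calls among the 9 genes rose to 2. The libraries did not overlap for C1R, C1S and C2, higher in Lb, and for C3, lower in Lb, which makes 4 of the 9 genes against 31.4% of all genes in either direction. C2 had a log2 fold change of 1.04 ± 0.33 (edgeR adjusted p 0.0998), and DESeq2 called it at 1.03 (adjusted p 0.0417, in a range of 0.0162 to 0.293 over all alternatives). C3 was at -0.38 ± 0.19 (edgeR adjusted p 0.252). The C1q chains had higher means in Lb but overlapped between the groups, at 0.90 ± 0.51 for C1QA, 1.06 ± 0.49 for C1QB and 0.78 ± 0.26 for C1QC. C7 was at 0.05 ± 1.22, with a change of sign without Hb1 (-0.38), Hb3 (-0.11) or Lb2 (-1.71), and CFD was at -0.35 ± 0.45, with a change of sign without Hb2 (0.15). The 2 breed comparisons and the 2 age comparisons share libraries, so their values are not independent.

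None of the 9 complement genes had a change with age that was called as different between the breeds. For the interaction of breed and age, edgeR called 0 of the 9 genes, against 5.14% of 17332 genes tested, with 2 at an unadjusted p under 0.05. DESeq2 called 0 with 2 at that p, limma on log2(FPKM + 1) called 0 with 4, and limma on log2(FPKM + 0.1) called 1, C1QC. The median interaction of the 9 genes was 0.59, against 0.02 over all genes, where a positive value is a smaller fall or larger rise in LC. C1QA had an interaction of 1.12 ± 0.57 (edgeR adjusted p 0.254), and without Hb1 it was called at 1.86 (edgeR adjusted p 0.0317, in a range of 0.0317 to 0.426 over all alternatives). C1QC had an interaction of 0.85 ± 0.31 (edgeR adjusted p 0.117), and without Hb1 it was called at 1.15 (edgeR adjusted p 0.0278, in a range of 0.0278 to 0.214). C1QB was at 1.21 ± 0.54 (edgeR adjusted p 0.190), and no alternative made it a call. The interaction was 0.33 ± 0.18 for C1R (edgeR adjusted p 0.291) and 0.59 ± 0.32 for C2 (edgeR adjusted p 0.283). C3 changed sign without Ha2 (0.19), Hb2 (0.11) or La1 (0.06).

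Levels can be compared between genes only per length, for which the FPKM values that the authors deposited were used. By mean FPKM the order in Ha was C3 (119.1), C1QC (94.4), C1QB (76.7), C1QA (74.8), C1S (64.1), C1R (58.0), CFD (11.7), C2 (4.70) and C7 (3.96). In Ha only C1R and CFD, and CFD and C2, were neighbours whose libraries did not overlap. In Hb the order was C3 (43.3), C1S (20.7), C1QC (13.0), C1R (11.7), C1QA (5.35), CFD (5.26), C1QB (4.59), C2 (0.810) and C7 (0.323), and only C3 and C1S, and C1QB and C2, were apart. In La the order was C1S (112.3), C3 (93.1), C1QC (84.8), C1R (80.4), C1QB (64.6), C1QA (60.9), CFD (16.5), C2 (6.06) and C7 (1.98). La differed from Ha in that C1S came first, although C1S and C3 overlapped, as did C3 and C1QC, C1QC and C1R, and C1QB and C1QA. In Lb the order was C1S (47.6), C3 (35.9), C1QC (24.5), C1R (23.3), C1QA (11), C1QB (10.6), CFD (4.44), C2 (1.82) and C7 (0.347). Here the neighbours that overlapped were C1QC and C1R, C1QA and C1QB, C1QB and CFD, and CFD and C2, so C1S was above C3 in every Lb library. C7 was last in all 4 groups.

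Within C1 the proportions of the transcripts changed with age. The FPKM ratio of C1QC to C1QA in a library was 1.15, 1.37 and 1.31 in Ha, 1.83, 2.68 and 4.23 in Hb, 1.44, 1.36 and 1.37 in La, and 2.91, 2.03 and 2.1 in Lb. The ratio was higher in every library at 120 days than in any at 30 days. The ratio of C1QB to C1QA stayed near 1, at 0.964, 1.11 and 1.03 in Ha, 0.744, 1.05 and 0.913 in Hb, 1.05, 1.05 and 1.08 in La, and 0.854, 0.882 and 1.07 in Lb. C1S over C1R was 1.22, 1.07 and 1.02 in Ha, 1.98, 1.70 and 1.63 in Hb, 1.40, 1.41 and 1.38 in La, and 2.07, 2.04 and 2.03 in Lb. These 4 groups did not overlap, and the ratio of C1S to C1R was higher at 120 days in both breeds and higher in LC at both ages. These ratios were not tested.

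**Figure D3:**
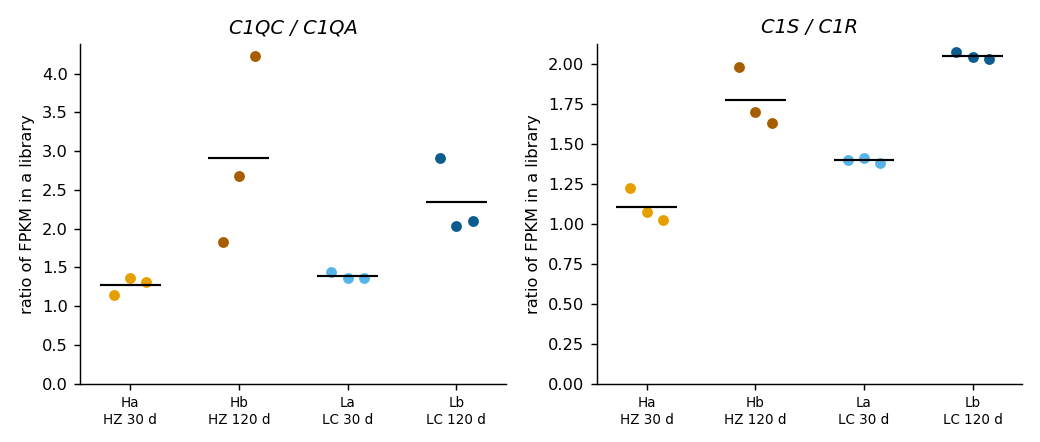
Ratio of the deposited FPKM of C1QC to C1QA and of C1S to C1R in each library of Ha, Hb, La and Lb, with the group mean as a line.

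Other complement genes were examined with a list of 43 symbols, of which 38 had a row and 5 (C4B, FCN3, CR1L, CR2 and ITGAX) were not analysed here. C4BPA had 2 rows, so 39 rows were examined, and MBL2, a lectin that starts a pathway of its own, was at 0 in all 12 libraries. In Ha vs Hb, 27 of the 35 tested were called, 7 upregulated and 20 downregulated, with a median log2 fold change of -1.98, while 51.4% of all genes tested were called and 23.2% were downregulated. In La vs Lb, 20 of the 32 tested were called, 4 upregulated and 16 downregulated, with a median of -1.23, against 47.6% and 20.1% of all genes.

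Among the upregulated genes in Ha vs Hb with the smallest edgeR adjusted p were C5 (2.14 ± 0.36, adjusted p 0.00138), the regulator CFI (1.22 ± 0.23, adjusted p 0.00262), C4BPB and C6 (1.59 ± 0.51, adjusted p 0.0252). C4BPB had estimated counts of 1, 0 and 3 in Ha and of 11, 22 and 16 in Hb (edgeR adjusted p 0.00287). C6 was not called without Ha1, Ha2, Hb1 or Hb2 (1.29 to 1.62, edgeR adjusted p 0.0589 to 0.0877), nor with library totals (1.29, adjusted p 0.0508), upper-quartile scaling (1.27, adjusted p 0.0529), limma on FPKM (0.17 and 0.71) or the replicate number as a block (1.60, adjusted p 0.0713), so that 7 of 16 alternatives kept its call, with adjusted p from 0.0202 to 0.0877. CFI in Ha vs Hb missed the fold threshold with library totals (0.91), upper-quartile scaling (0.90) and limma (0.49 and 0.68), whereas C5 and C4BPB missed it only with limma on log2(FPKM + 1) (0.63 and 0.49). In La vs Lb the upregulated genes were MASP1 (2.43 ± 0.34, edgeR adjusted p 0.000300), CFI (1.16 ± 0.25, adjusted p 0.00303), the lectin COLEC10 (1.77 ± 0.44, adjusted p 0.00663) and C5 (1.15 ± 0.35, adjusted p 0.0163). Here CFI missed the fold threshold without La1 (0.95) or Lb3 (0.99), with upper-quartile scaling (0.90) and with limma (0.60 and 0.84). C5 was not called without La2 (0.92, edgeR adjusted p 0.0536) or Lb2 (0.84, edgeR adjusted p 0.0586), nor with library totals (0.98), upper-quartile scaling (0.89), limma (0.28 and 0.71) or the block (1.14, adjusted p 0.0515, in a range of 0.00513 to 0.0586 over all alternatives). MASP1 was called in all 16 alternatives, and COLEC10 in all but limma on log2(FPKM + 1) (0.25).

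The downregulated genes in Ha vs Hb with the smallest edgeR adjusted p were the membrane regulator CD59 (-3.20 ± 0.19, adjusted p 1.18e-05), the integrin chain ITGB2 (-3.38 ± 0.23, adjusted p 1.95e-05), C4A (-3.04 ± 0.21, adjusted p 2.29e-05), CD93 (-3.21 ± 0.23, adjusted p 2.33e-05) and C1QBP (-1.66 ± 0.15, adjusted p 7.99e-05). In La vs Lb they were CD59 (-3.84 ± 0.18, edgeR adjusted p 4.67e-07), CFP (-3.06 ± 0.24, adjusted p 8.96e-06), CD55 (-2.46 ± 0.20, adjusted p 1.03e-05), SERPING1 (-1.52 ± 0.18, adjusted p 9.50e-05) and CR1. SERPING1 encodes the inhibitor of C1r and C1s. CR1 had estimated counts of 103.6, 112.2 and 172.5 in La and of 0, 4.04 and 0 in Lb (edgeR adjusted p 0.000106). In every one of these genes all 3 libraries at 120 days were below all 3 at 30 days. The genes were picked by their small adjusted p, which favours such a separation, so the separation is not further evidence. Of the genes that passed the filter over the 12 libraries, 36.7% were separated this way in HZ and 36.4% in LC.

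Between the breeds, edgeR called 3 of the 34 other complement genes tested in Ha vs La, against 7.62% of all genes, and their median log2 fold change was 0.00. The anaphylatoxin receptor C5AR2 was higher in La (1.19 ± 0.23, edgeR adjusted p 0.0108), and C8B (-1.39 ± 0.33, edgeR adjusted p 0.0217) and MASP1 (-1.15 ± 0.34, edgeR adjusted p 0.0488) were lower. C8B was not called without Ha1, Ha2, La1 or La2 (-1.46 to -1.24, edgeR adjusted p 0.0537 to 0.0731), and MASP1 was not called without Ha1, Ha2, La1, La2 or La3 (-1.25 to -0.86, edgeR adjusted p 0.0884 to 0.153). With the replicate number as a block, C8B (-1.41, edgeR adjusted p 0.052) and MASP1 (-1.07, edgeR adjusted p 0.0742) were not called either. Over all genes, leaving out 1 library gave 5.22% to 9.23% called in Ha vs La, and the block gave 6.58%. In Hb vs Lb 2 of the 30 tested were called, against 3.85% of all genes, CD93 (1.40 ± 0.29, edgeR adjusted p 0.0382) and C4A (1.05 ± 0.24, edgeR adjusted p 0.0485), both higher in all 3 Lb libraries, and the median was 0.41. Leaving out Hb1, Hb3, Lb1, Lb2 or Lb3 left 0 of them called (1.23 to 1.58 for CD93 and 0.91 to 1.23 for C4A, edgeR adjusted p 0.0608 to 0.152), and leaving out Hb2 gave 4. The share called over all genes moved as well. It was 3.73% without Hb1, 0.716% without Hb3 and 6.24% without Hb2. Without Lb1, Lb2 and Lb3 it was 1.1%, 0.588% and 0.838%.

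For the interaction of breed and age, 5 of the 35 other complement genes tested were called, against 5.14% of all genes. C4A, which encodes C4, the partner of C2 in the classical convertase, was at 4225, 3466 and 3819 CPM in Ha, at 446.9, 586.9 and 370.0 CPM in Hb, at 1873, 1896 and 2064 CPM in La, and at 696.4, 1052 and 1076 CPM in Lb. C4A was highest in Ha and lowest in Hb, and its interaction was 1.99 ± 0.27 (edgeR adjusted p 0.00365). CD93 (1.49 ± 0.35, edgeR adjusted p 0.0285) and CSMD1 (1.79 ± 0.49, edgeR adjusted p 0.0493) fell more in HZ as well. MASP1, a protease of the lectin pathway, rose in LC while its fold change in Ha vs Hb was 0.17 ± 0.38 and changed sign under other scalings, and its interaction was 2.24 ± 0.54 (edgeR adjusted p 0.0313). FCN2 was at estimated counts of 20.4, 30.0 and 28.6 in Ha and of 0 in all 3 Hb libraries, a level at least 6.06-fold lower, and of 9, 11.2 and 17.9 in La and 3, 2.1 and 1 in Lb. With both groups at 120 days at 3 counts or fewer, the call for FCN2 does not show that its change differed between the breeds. Without 1 library, C4A was called in each case, CD93 was lost without Ha1, Ha2, Hb3, La2, La3, Lb1 or Lb2 (1.32 to 1.53, edgeR adjusted p 0.0552 to 0.0678), and MASP1 without Ha1, Ha2, Hb3, La1, La2, La3, Lb2 or Lb3 (1.99 to 2.36, edgeR adjusted p 0.0545 to 0.0790). CSMD1 was lost without any library but Ha1 (1.38 to 1.94, edgeR adjusted p 0.0638 to 0.110). Over all genes, leaving out 1 library gave 2.48% to 7.06% called in the interaction.

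**Figure D4:**
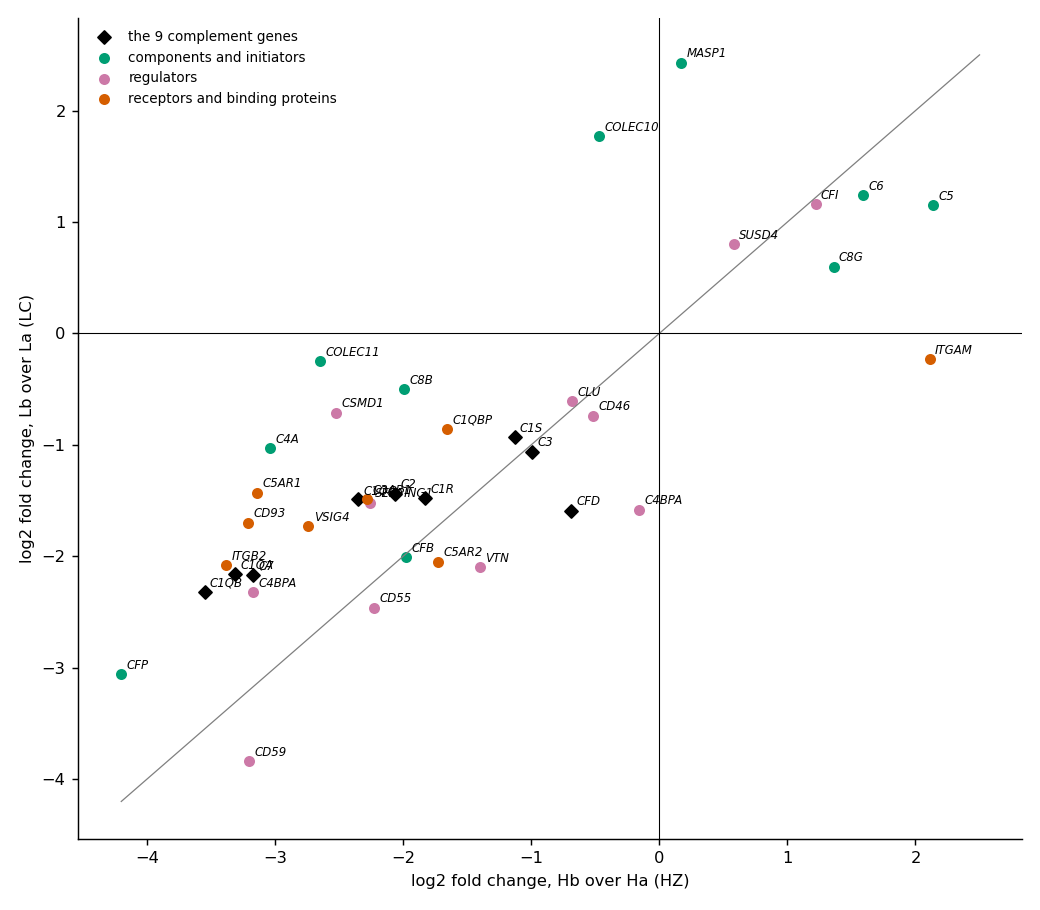
Log2 fold change with age in HZ (Hb over Ha) and LC (Lb over La) of the 9 complement genes and of the other complement genes by role. Genes with a group mean of 3 estimated counts or fewer and 1 gene not reported here were left out, and the diagonal marks equal change.

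Genes that mark some cell types were also downregulated with age. Of 6 macrophage genes, 5 were downregulated and 1, MRC1, was upregulated in Ha vs Hb, and 4 were downregulated and MRC1 upregulated in La vs Lb. Of all genes tested, 23.2% and 20.1% were downregulated in these comparisons. The summed level of the C1q chains was 355.4, 291.6 and 261.2 CPM in Ha, 60.8, 35.8 and 27.1 CPM in Hb, 283.2, 262.3 and 248.9 CPM in La, and 49.9, 69.9 and 96.6 CPM in Lb. The 6 macrophage genes together, of which MRC1 had the highest level over the 12 libraries together but not in every group, were at 185.4, 152.5 and 152.2 CPM in Ha, 166.4, 238.6 and 150.9 CPM in Hb, 167.1, 156.5 and 173.0 CPM in La, and 163.9, 133.6 and 125.4 CPM in Lb. In FPKM this sum was 50.3, 41.2 and 40.1 in Ha, 19.8, 32.1 and 18.5 in Hb, 45.4, 41.0 and 45.8 in La, and 23.9, 21.7 and 22.5 in Lb, so that its direction in Ha vs Hb depends on the unit (log2 ratio 0.18 in CPM and -0.90 in FPKM). Without MRC1, a choice made after the values were seen, the other 5 together were at 124.2, 100.9 and 106.2 CPM in Ha, 17.4, 20.1 and 10.7 CPM in Hb, 122.3, 106.6 and 114.7 CPM in La, and 21.3, 37.8 and 35.9 CPM in Lb. The C1q chains over CD163, a macrophage scavenger receptor, gave FPKM ratios of 23.2, 20.1 and 20.7 in Ha, 33.7, 16.1 and 19.0 in Hb, 21.8, 23.9 and 21.6 in La, and 39.5, 33.9 and 33.6 in Lb. Relative to CD163, the C1q chains thus overlapped between Ha and Hb and were higher in all Lb than in all La libraries. Over CSF1R, the receptor for the macrophage growth factor, the ratios were 24.9, 28 and 18.4 in Ha, 23.8, 12.9 and 20.6 in Hb, 16.6, 17.9 and 15.2 in La, and 15.9, 10.9 and 15.8 in Lb, and the ages overlapped in both breeds. Over AIF1, a calcium-binding protein of macrophages, they were 31.9, 28.9 and 32.4 in Ha, 53.9, 69.9 and 51.0 in Hb, 22.0, 26.3 and 23.2 in La, and 20.3, 20.3 and 25.9 in Lb, where La and Lb overlapped and the values in Hb rest on AIF1 counts of 12, 7 and 5. Over MRC1, which rose with age, they were 28.8, 27.9 and 28 in Ha, 1.99, 0.787 and 0.913 in Hb, 31.3, 26.1 and 21.1 in La, and 1.67, 3.55 and 5.23 in Lb, and thus lower at 120 days in every library. Over CD68 they were 87.4, 96.3 and 116 in Ha, 127, 93.7 and 96.8 in La, and 103, 75 and 146 in Lb, and those in Hb (1080, 55.6 and 148) rest on CD68 counts of 1, 16 and 3. The ratio to CD14 was not computed. Whether a change in macrophage number accounts for the fall of C1q was not tested.

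Among stromal and endothelial genes, more were downregulated than upregulated with age. Of 10 stromal and peritubular genes, 8 were downregulated and 0 upregulated in Ha vs Hb, and 5 were downregulated and 1, ACTA2 (1.42 ± 0.18), upregulated in La vs Lb, while of all genes 23.2% and 20.1% were downregulated in these comparisons. Between the breeds at 120 days, 5 were called higher in Lb, against 432 of 16311 genes tested. Their summed level, with COL3A1 the most abundant over the 12 libraries together though not in Hb2 and Hb3, was 4730.0, 4585 and 4508 CPM in Ha, 607.3, 353.9 and 255.2 CPM in Hb, 6906, 6179 and 7611 CPM in La, and 3083, 3007 and 2570.0 CPM in Lb. The stromal sum had the order La, Ha, Lb and Hb without overlap, which was also the order of C1R and of C2. This order was not particular to stroma, as the summed Sertoli cell genes had it too. They were at 1269.5, 1209.3 and 1664 CPM in Ha and at 405, 578.5 and 467.2 CPM in Hb. In La they were at 2641, 3212 and 2914 CPM, and in Lb at 604.5, 752.8 and 640.3 CPM. For the interaction 5 stromal genes were called, COL1A1 (4.02), COL3A1 (3.19), COL1A2 (2.83), ACTA2 (2.54) and PDGFRB (2.09), as were PECAM1 (1.92) of the endothelial and AIF1 (1.94) of the macrophage genes, all with a positive value, as were 68.4% of the 890 called over all genes. On the other lists SLC4A1 (4.92), DAZL (1.53) and KIT were called with a positive and ACRV1 (-2.96) and PRM1 (-1.83) with a negative interaction. These genes were named after their values were seen. Of 5 endothelial genes, with VWF the most abundant, 5 were downregulated in HZ and 3 in LC with age. The endothelial sum was 669.3, 680.6 and 615.9 CPM in Ha, 172.8, 304.5 and 186.2 CPM in Hb, 795.0, 627.2 and 756.0 CPM in La, and 315.8, 496.5 and 278.3 CPM in Lb. The summed level of the 9 complement genes was 1479, 1083 and 1721 CPM in Ha, 527.6, 657.0 and 479.8 CPM in Hb, 1614, 1348 and 1460.2 CPM in La, and 602.6, 637.6 and 637.0 CPM in Lb. The ages did not overlap in either breed. The dependence of C1R and C1S on the share of stromal cells was not tested.

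The other marker lists had no gene at 0 in all 12 libraries. Over all genes tested, 51.4% were called and 23.2% downregulated with age in HZ, and 47.6% and 20.1% in LC. With age in HZ and in LC, the numbers downregulated were 4 and 5 of 7 Leydig cell genes (most abundant by FPKM over the 12 libraries together, INSL3), 4 and 4 of 8 Sertoli cell genes (INHA) and 4 and 4 of 4 T cell genes (CD2). Of 3 neutrophil genes (S100A8), 2 were downregulated in each, and of the red blood cell genes (HBB), 4 of 4 tested and 0 of 3 tested. Of 11 spermatogonial genes (DDX4), 6 and 5 were downregulated and 3 and 4 upregulated. Over the 12 libraries together, the most abundant spermatocyte and spermatid genes were PIWIL1 and PRM1. Most B cell genes (CD79B), adipocyte genes (LEP) and hepatocyte genes (SERPINA1) were too low to test, with 0 and 2 of 4, 1 and 2 of 5, and 2 and 2 of 5 tested. Of these, 1 B cell gene was downregulated in La vs Lb, and 1 adipocyte gene and 1 hepatocyte gene were upregulated in both comparisons. By mean FPKM within groups, S100A8, HBB and PRM1 led their lists in each of the 4 groups, and the other genes named in this paragraph as most abundant did not.

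The members were compared with all other genes by Pearson correlation of log2 CPM over the 12 libraries, which fall into 4 groups, so the difference between the ages enters every value. C1QA and C1QB were the closest pair (r = 0.996), and each was the nearest of 17331 genes to the other. C1QC was next for both (r = 0.991 with C1QA and 0.993 with C1QB), and DHODH was the nearest gene outside C1q to C1QC (r = 0.992). The nearest genes with a symbol were DCN (r = 0.996) and DPF3 (r = 0.994) for C1R. For C1S they were PLPP3 (r = 0.982) and ITM2A (r = 0.977). C1R and C1S had r = 0.934 with each other, which put C1S at rank 1304 for C1R and C1R at rank 149 for C1S. C2 was most like ADCY7 (r = 0.990) and MSN (r = 0.989), and C1R was its nearest member (r = 0.984). C3 was most like ANKRD37 (r = 0.920) and GREB1 (r = 0.912), and its highest r with a member was 0.737, with CFD at rank 1945. C7 was most like MRPS18B (r = 0.948) and IMPDH1 (r = 0.946), and CFD was most like SHISA6 (r = 0.960) and RIPOR1 (r = 0.955), with r = 0.843 between C7 and CFD. After subtraction of the group means, C1QA and C1QB had r = 0.961, each at rank 3 for the other, and C1R and C1S had r = 0.894. By the same measure r was 0.656 for C2 and C1R and 0.318 for C3 and CFD. The nearest genes with a symbol to C1R were then PLSCR4 (r = 0.976) and ANGPTL2 (r = 0.968). For C1QC, C1S, C2, C3, C7 and CFD they were also other genes than those named above.

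All 9 genes were matched to the RefSeq annotation of Sscrofa11.1 by gene ID. C1QA (80586259 to 80589213), C1QC (80592591 to 80597464) and C1QB (80601680 to 80606076) lie together on chromosome 6, with 3377 and 4215 bases between them. C1R (63644097 to 63655149) and C1S (63670309 to 63681466) lie on chromosome 5 with 15159 bases between them. C2 (24020590 to 24034042) lies on chromosome 7, 34 bases from CFB and 33976 bases from C4A. C3 (72431470 to 72471622) and CFD (77509792 to 77511988) are on chromosome 2, and C7 (25846860 to 25902707) is on chromosome 16, 120938 bases from C6. CFD lies within the span of MED16 (77490953 to 77526872), and how reads were divided where genes overlap was not examined.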

How the data were processed

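The authors filtered reads with fastp 0.18.0, removed ribosomal reads with Bowtie2 2.2.8, mapped the rest with HISAT2 2.1.0 and assembled transcripts with StringTie 1.3.4. They deposited a table of coding genes with an estimated count and an FPKM value, which is scaled by length and library, for each gene and library. The tool behind the estimated counts is not named. Reads were not analysed here.

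The estimated counts were rounded. For each comparison of 2 groups, only the 6 libraries of those groups were used. Low genes were removed by filterByExpr at a minimum count of 10, libraries were scaled by TMM, and edgeR 4.0.16 under R 4.3.3 ran its quasi-likelihood F test, with Benjamini-Hochberg adjustment over all genes tested. All 12 libraries entered the test of the breed by age interaction. The standard error is the absolute log2 fold change divided by the square root of the F statistic. Log2 CPM for correlations used a prior count of 2. Where a group was at 0, the fold is a bound against 3 counts in each of its libraries.

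Alternatives were DESeq2 1.42.0, limma 3.58.1 on log2 of the deposited FPKM plus 1 or 0.1, other scalings and filters, the adjusted p alone, all 12 libraries in one fit, the replicate number as a block, and leaving out each library.

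All 9 complement genes are named. From the list of other complement genes, those named are up to 5 called genes per direction and comparison, by adjusted p, those called in the interaction and those at 0 throughout. Of these, 1 gene is left out of the text but is part of the counts. For each of 14 marker lists the gene most abundant by FPKM over the 12 libraries together is named, and for each of the 9 genes the 2 genes most alike with a symbol. The genes, the lists and the tests were chosen with earlier results of these data known.

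The macrophage genes were CD68, CD14, CD163, CSF1R, AIF1 and MRC1. The stromal and peritubular genes were COL1A1, COL3A1, ACTA2, LUM, COL1A2, PDGFRB, MYH11, PDGFRA, DES and DCN, and the endothelial genes PECAM1, VWF, CDH5, KDR and EMCN.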

Additional observations from a re-analysis of the deposited data

Results flagged for a closer look

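The test of the interaction of breed and age, which compares the change with age in HZ and LC, called 5 other complement genes (5.14% of all genes were called) and none of the 9 complement genes. The edgeR adjusted p was 0.00365 for C4A, with log2 fold changes of -3.04 ± 0.21 in HZ and -1.03 ± 0.17 in LC. It was 0.0285 for CD93, with -3.21 ± 0.23 and -1.70 ± 0.23, and 0.0313 for MASP1, at 0.17 ± 0.38 and 2.43 ± 0.34. For CSMD1, at -2.52 ± 0.41 and -0.71 ± 0.24, it was 0.0493. FCN2 (0.0408) was at 0 counts in all Hb libraries and at 3 or fewer in Lb, so its call does not show a difference between the breeds. The cause was not tested.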

How the results depend on the processing

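In the age comparisons the number of complement genes called stayed within 1.5 times the reported 7 under every alternative. Over all genes, the share called ran from 40.2% to 68.9% in Ha vs Hb and from 33.6% to 70% in La vs Lb. Over single genes of the 9 and all comparisons, 711 of 764 alternative fold changes kept direction and call. Of the rest, 31 became calls, 7 lost the call and 15 changed sign. These values reuse the same libraries and are not independent, and the adjusted p alone could not change a sign.

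In Ha vs La, the adjusted p alone gave 3 of the 9 and 8 of the other complement genes. For the other genes, limma on log2(FPKM + 1) gave 1 and all 12 libraries in one fit gave 0, against 3. Over all genes, these 3 settings gave 21.3%, 3.24% and 5.55%, against 7.62%. In Hb vs Lb, where 1 of the 9 was called, the adjusted p alone, DESeq2 and limma on log2(FPKM + 0.1) each gave 2. For the other genes, DESeq2 gave 7 and all 12 libraries in one fit gave 8, against 2. The share called over all genes rose too, from 3.85% to 7.21% with DESeq2 and 7.26% with all 12 libraries. It was 5.47% at the adjusted p alone and 5.11% with limma on log2(FPKM + 0.1). For the interaction, limma on log2(FPKM + 0.1) called 1 of the 9, and for the other genes DESeq2 gave 9, and limma on log2(FPKM + 1) and no filter gave 3 each, against 5. Over all genes the interaction share was 7.88% with limma on log2(FPKM + 0.1) and 7.86% with DESeq2, against 5.14%. It was 5.26% with limma on log2(FPKM + 1) and 4.02% with no filter. In Ha vs Hb, limma on log2(FPKM + 1) called 15 of the other genes, against 27, and 40.2% of all genes, against 51.4%.

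Leaving out each library gave 0 to 1 of the 9 genes in Ha vs La, 0 to 2 in Hb vs Lb and 0 to 2 for the interaction. For the other genes it gave 0 to 4 in Hb vs Lb and 1 to 5 for the interaction. Over all genes it gave 5.22% to 9.23% in Ha vs La, 0.588% to 6.24% in Hb vs Lb and 2.48% to 7.06% for the interaction. Leaving out each library gave log2 fold changes of -0.60 to 0.05 for C3 in Ha vs La and -0.12 to 0.46 for MASP1 in Ha vs Hb. In Hb vs Lb it gave -1.71 to 0.98 for C7 and -0.57 to 0.15 for CFD. Interactions ran from -0.44 to 0.19 for C3 and from -0.81 to 1.92 for C7.

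Signs also changed with scaling and unit. MASP1 in Ha vs Hb was at -0.13 with library totals, -0.14 with upper-quartile scaling, and -0.16 and -0.25 with limma on log2 of FPKM plus 1 and 0.1. The interaction of C3 was 0.05 with library totals and 0.04 with limma at both offsets. C7 in Hb vs Lb was at -0.00 and -0.25 with limma at the 2 offsets. On FPKM in place of CPM, the log2 ratio of the summed macrophage genes was -0.90 instead of 0.18 in Ha vs Hb, and that of the endothelial genes -0.03 instead of 0.15 in Ha vs La.

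Equal replicate numbers do not pair the samples by their labels. In Ha vs Hb each library correlated best with that of its own number (r 0.016 to 0.053), and in the other comparisons none did. With the replicate block, 8 of the 9 were called in La vs Lb, with C7 added, 0 of the 9 and 0 of the other genes were called in Hb vs Lb, 2 of the other genes for the interaction, and C7 in Hb vs Lb was at -0.64. Over all genes, the block gave 46.7% called in La vs Lb, 0.944% in Hb vs Lb and 3.88% for the interaction. Without the block these shares were 47.6%, 3.85% and 5.14%. The cause of these differences was not tested.

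Levels per length with RefSeq transcript lengths were not run, as no lengths of transcripts were given.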
